A study of Homo sapiens with 12 samples.

Results

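The 6 genes OSGIN1, TRIM16, TRIM16L, EPHX1, ABCC2 and SQSTM1, known targets of the transcription factor NRF2, were followed in DU145, an established human prostate cancer cell line. They were chosen by symbol, with earlier results of these data known, and every value column that holds them was used. All 6 were found, 5 of them among the 1810 genes of a table that compares RSL3 with DMSO and 1 (ABCC2) among the 1424 genes of a table that compares ATOH8 overexpression with its control. Both tables hold genes that the authors called changed, so a gene outside a table has no value there: ABCC2 after RSL3, and the other 5 genes after ATOH8 overexpression, were not analysed here. Because being listed is part of how the genes were found, their differences are given as descriptions with no test.

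RNA was sequenced from 12 DU145 libraries in 4 groups of 3, as part of a search for regulators of ferroptosis, an iron-dependent form of cell death driven by lipid peroxides. Wild-type (WT) cells received DMSO, the solvent, or RSL3, a compound that binds and blocks GPX4, the enzyme that clears lipid peroxides. The time of 24 h is stated here for the RSL3 libraries only. The dose was not given in the sources used here. The other 2 groups, with genotypes OE CTRL and OE ATOH8, are written oeCTRL and oeATOH8. The latter overexpresses ATOH8, which is a transcription factor of the basic helix-loop-helix class. The construct, its promoter and whether 1 clone or a pool was used were not given either. All 4 groups share the DU145 background.

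NRF2, encoded by NFE2L2, is held in the cytoplasm by KEAP1, which hands it to a CUL3 ubiquitin ligase for degradation. When oxidants or electrophiles modify KEAP1, NRF2 accumulates, pairs with a small MAF protein and binds antioxidant response elements beside genes for detoxification, glutathione, NADPH, iron and haem metabolism. The protein of SQSTM1, also called p62, is both a product and a regulator of the pathway: it binds KEAP1, carries it with ubiquitinated cargo into autophagosomes, and so frees NRF2. EPHX1 encodes microsomal epoxide hydrolase, which opens epoxides to diols. ABCC2 encodes MRP2, an export pump for glutathione, glucuronide and sulfate conjugates. OSGIN1 encodes an oxidative-stress-induced growth inhibitor. TRIM16 is a tripartite-motif protein with E3 ligase activity linked to the handling of damaged membranes and protein aggregates, and TRIM16L is its shorter relative.

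A few promoter stretches are shown because the genes share the factor named for them, and they differ in which motif letters they hold. RefSeq windows (GRCh38.p14) of 250 bases upstream of an annotated start were found for 5 of the 6 genes, 9 windows in all, with 3 each for EPHX1 and SQSTM1; TRIM16L had none. Both strands were searched for 4 motifs: the core of the antioxidant response element (TGACNNNGC), the AP-1 site (TGANTCA), an amino acid response element (TGATGNAA) and the E-box (CANNTG), which basic helix-loop-helix factors bind. An antioxidant response element can contain an AP-1 site, so these 2 motifs can overlap. The capitals mark the AP-1 match that starts at position -97 in OSGIN1 (chr16:83952990-83953221, plus strand, exon bases left out), the antioxidant response core that starts at -78 in the second window of EPHX1 (chr1:225825104-225825353, plus strand), and the E-box that starts at -153 in ABCC2 (chr10:99782390-99782639, plus strand). The second EPHX1 window lies inside the span of the gene, at another annotated start whose use was not measured. The first EPHX1 window, directly upstream of that span, held no core.
OSGIN1: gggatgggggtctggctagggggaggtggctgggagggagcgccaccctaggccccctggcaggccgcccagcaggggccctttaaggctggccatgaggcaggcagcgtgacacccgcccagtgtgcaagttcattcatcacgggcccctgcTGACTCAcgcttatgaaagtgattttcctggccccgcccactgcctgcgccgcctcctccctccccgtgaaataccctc
EPHX1: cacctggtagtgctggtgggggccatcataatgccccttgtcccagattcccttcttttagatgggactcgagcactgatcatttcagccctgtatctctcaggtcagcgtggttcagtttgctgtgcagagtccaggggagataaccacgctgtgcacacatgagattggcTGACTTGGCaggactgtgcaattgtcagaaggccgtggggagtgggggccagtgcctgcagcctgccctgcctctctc
ABCC2: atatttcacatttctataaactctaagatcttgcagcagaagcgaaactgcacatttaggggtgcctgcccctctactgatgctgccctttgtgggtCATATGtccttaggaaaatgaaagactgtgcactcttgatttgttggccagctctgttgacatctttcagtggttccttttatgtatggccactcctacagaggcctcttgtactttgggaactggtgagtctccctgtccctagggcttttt

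Among all 35116 windows of the same length, 10.9% held the antioxidant response core, 6.57% the AP-1 site, 3.14% the amino acid response element and 61.8% an E-box. Among the 9 windows of these genes, 1 held the core, 1 the AP-1 site and none the amino acid response element. The E-box was also present in all 3 EPHX1 windows and in the first SQSTM1 window, where 3 copies were found. No motif was found in the TRIM16 window or in the other 2 SQSTM1 windows. All of these windows without a motif lie inside the span of their gene, at annotated starts whose use was not measured. Exons cover 179 bases of the TRIM16 window, and 194 and 198 bases of those SQSTM1 windows. The stretch directly upstream of the TRIM16 span was not searched. A match describes letters and not binding, and a window without a match says nothing of elements farther away.

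A second pair of sequences shows why TRIM16 and TRIM16L cannot be separated fully. The longest coding transcripts (GENCODE v29) aligned over 1822 bases with 23 mismatches, an identity of 98.7%. All 1044 coding bases of TRIM16L aligned to TRIM16, with 14 differences. The 90-base coding stretch below holds 4 of those differences, in capitals, and lies at chr17:15628767-15628856 on the minus strand for TRIM16 and chr17:18735219-18735308 on the plus strand for TRIM16L (GRCh38).
TRIM16: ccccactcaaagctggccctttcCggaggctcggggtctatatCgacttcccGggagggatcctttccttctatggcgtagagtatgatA
TRIM16L: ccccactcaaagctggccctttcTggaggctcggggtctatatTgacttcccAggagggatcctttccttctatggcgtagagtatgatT

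Of all 50-base words of the TRIM16L transcript, 56.2% occurred unchanged in TRIM16, and 29.8% of its 100-base words did. In the other direction the shares were 32.2% and 13.4%. Reads from the shared stretches can be given to either gene by the aligner, so the levels of TRIM16 and TRIM16L below are uncertain as separate values.

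The replicates were compared before the genes. Pairs that included replicate 1 of DMSO or RSL3 had chi-squares of 60.7 to 106 per degree of freedom on whole reads. Replicates 2 and 3 had 1.65 (DMSO) and 1.81 (RSL3), a little over the 1 that counting error would give. Replicates 2 and 3 were therefore close to repeats of 1 sample, and replicate 1 stood apart in both groups. The labels do not say whether replicates were separate cultures, so every p-value measures only the spread between these libraries, which may be technical. Reads over listed genes ranged from 2523743 to 3096832 per library in the RSL3 table and from 1508188 to 2226518 in the ATOH8 table; these sums are not library depths, which are unknown here. As a check of the label, ATOH8 read 9.02 ± 4.40 in oeCTRL and 74227 ± 389 in oeATOH8 (SD, n = 3). GPX4, NFE2L2 and KEAP1 were in neither table. Of 8 epithelial and prostate markers, EPCAM and CDH1 were in the RSL3 table and KRT8 and CDH1 in the ATOH8 table, all lower in the second group. The other markers have no value here, so the labelled tissue could be checked only in part.

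With RSL3, all 5 listed genes were higher, by 2.36-fold to 3.15-fold as ratios of group means. No DMSO library reached the level of any RSL3 library for any of the 5. This count of 5 of 5 stands beside 48.5% of the 1810 listed genes, higher with groups that do not overlap (37.8% were lower in the same way). By limma at an adjusted p of 0.05, 82% of 1732 listed genes tested were called, 43.1% higher and 38.9% lower. Since the genes were taken from the list of called genes, nothing is read from these shares. Levels are normalised read counts, and a log2 fold change is the limma coefficient on log2(value + 1), with its standard error (SE).

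OSGIN1 (chromosome 16, 83953240 to 83966332, plus strand) had the highest fold of the 5. Its normalised read counts were 1109, 719 and 650.2 in DMSO replicates 1, 2 and 3, and 3901, 1953 and 1949 in the RSL3 replicates. Replicate 1 was the highest library of each group, and the groups were separated by a factor of 1.76 from the highest DMSO to the lowest RSL3 library. The means were 826 ± 247 and 2601 ± 1126 (SD, n = 3), and their ratio was 3.15. The log2 fold change was 1.61 (SE 0.33).

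EPHX1 (chromosome 1, 225810124 to 225845563, plus strand) was 2.72-fold higher. Its counts were 3928, 2100.5 and 2065 in DMSO and 11349, 5315 and 5326 in RSL3. The RSL3 libraries of replicates 2 and 3 lay only 1.35 times above DMSO replicate 1, the highest control. The means were 2698 ± 1066 and 7330.0 ± 3481, with a log2 fold change of 1.41 (SE 0.37).

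SQSTM1 (chromosome 5, 179806393 to 179838078, plus strand) had the highest counts of the 5. The values were 23432, 12332 and 12289.8 in DMSO and 64748, 27789 and 28084 in RSL3. The margin between the groups was the narrowest here, with the lowest RSL3 library 1.19 times the highest DMSO library. The means of 16018 ± 6421 and 40207 ± 21254 gave a ratio of 2.51 and a log2 fold change of 1.28 (SE 0.41). Of the 7654 exon bases of SQSTM1, 1582 (20.7%) are shared with MRNIP on the opposite strand, and 105 with MGAT4B. MRNIP was in the same table, at 584, 286 and 286 in DMSO and 1096, 669.7 and 700.1 in RSL3, 2.13-fold higher. Strandedness was not given in the sources used here, so reads of the 2 genes over the shared bases cannot be told apart; MRNIP counts were far below those of SQSTM1 in all 6 libraries.

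TRIM16 (chromosome 17, 15627966 to 15684311, minus strand) read 3037, 1962 and 1842 in DMSO and 8000.0, 4101 and 4074 in RSL3. The means of 2280.2 ± 658 and 5392 ± 2259 differed 2.36-fold (log2 fold change 1.20, SE 0.32). TRIM16 also shares 1327 of 5640 exon bases (23.5%) with AC005324.3 on the same strand and 357 with the antisense gene AC005324.5, neither of them listed. TRIM16L (chromosome 17, 18697998 to 18736119, plus strand) read 2548, 1682 and 1614 in DMSO and 6438, 3731 and 3674 in RSL3. Its means of 1948 ± 521 and 4614 ± 1579 differed 2.37-fold (log2 fold change 1.22, SE 0.29). In both genes replicate 1 was again the highest library of its group, and the lowest RSL3 library was 1.34 times (TRIM16) and 1.44 times (TRIM16L) the highest DMSO library.

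The reads of TRIM16 divided by those of TRIM16L were 1.19, 1.17 and 1.14 in DMSO and 1.24, 1.10 and 1.11 in RSL3. The means of this ratio were 1.17 ± 0.0254 and 1.15 ± 0.0803, and the groups overlapped. In these libraries the balance of the 2 relatives was thus within the replicate spread between DMSO and RSL3. Shared reads would bring the ratio of both genes together, and their part in it was not tested.

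**Figure D1:**
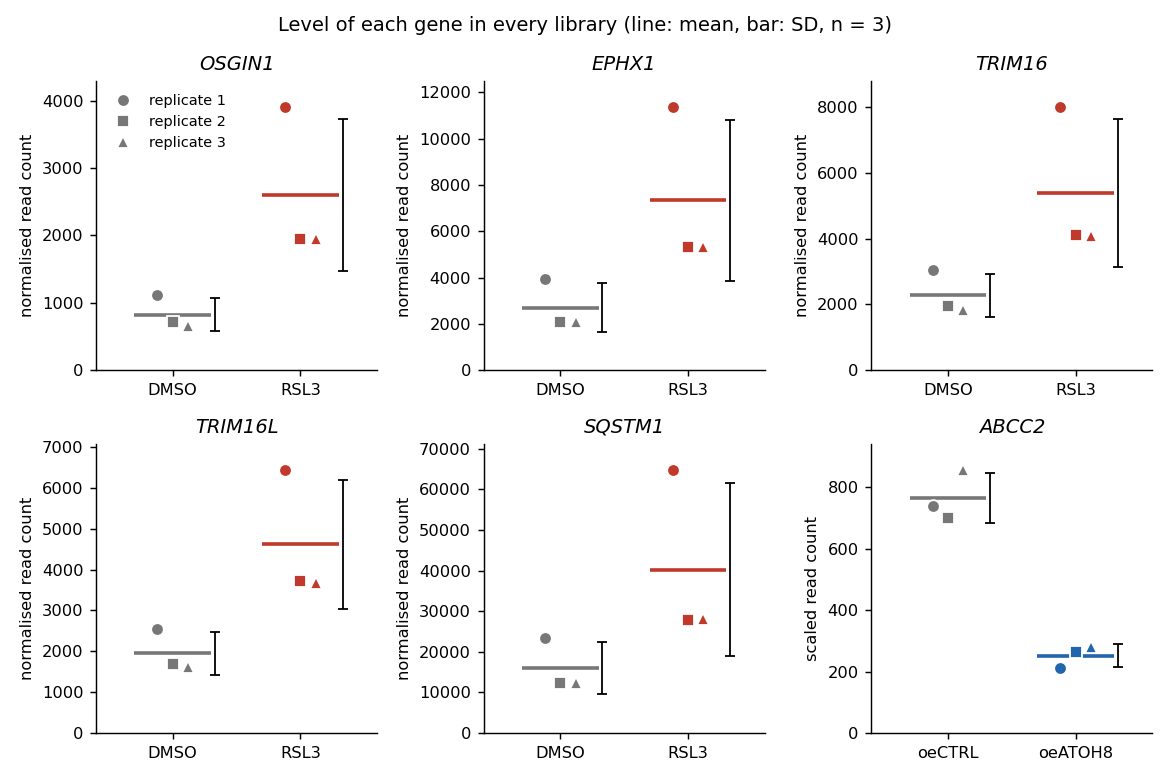
Level of each gene in every library; y axes start at 0 and give normalised read counts (RSL3 table) or scaled read counts (ABCC2), symbols mark the replicate number, horizontal lines the mean and bars the SD of 3 libraries. The 5 genes of the RSL3 table are higher in every RSL3 library, with replicate 1 highest in both groups, and ABCC2 is lower in every oeATOH8 library.

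Compared per length, the order of the levels was the same before and after RSL3. On the scale of normalised reads per kb of the longest coding transcript, OSGIN1 was lowest in DMSO at 346 ± 103 and SQSTM1 highest at 5364 ± 2150.3. TRIM16 (682 ± 197), TRIM16L (983 ± 263) and EPHX1 (1508 ± 596) lay between them. In DMSO, neighbours overlapped for TRIM16 and TRIM16L (551 to 909 against 814 to 1285) and for TRIM16L and EPHX1 (1154 to 2196), while OSGIN1 (272 to 464) and SQSTM1 (4116 to 7847) overlapped with no neighbour. In RSL3 the means were 1088 ± 471 for OSGIN1, 1613 ± 676 for TRIM16, 2328 ± 797 for TRIM16L, 4097 ± 1946 for EPHX1 and 13465 ± 7118 for SQSTM1. OSGIN1 then ranged from 815 to 1631 and TRIM16 from 1219 to 2394, so these neighbours overlapped after RSL3, as did TRIM16 and TRIM16L (1854 to 3248) and TRIM16L and EPHX1 (2971 to 6344), but not EPHX1 and SQSTM1 (9306 to 21684). The overlaps come with the high replicate 1: within each of the 6 libraries the order was OSGIN1, TRIM16, TRIM16L, EPHX1 and SQSTM1, from lowest to highest. The transcript in use was not measured, and a shorter isoform would raise a level per kb.

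Ranked by fold among the 958 listed genes that were higher, OSGIN1 was 105th, EPHX1 139th, SQSTM1 162nd, TRIM16L 185th and TRIM16 186th. Among the 821 of them with a mean of at least 50, the ranks were 41, 54, 62, 79 and 80. Genes with few reads thus took many of the places above them. The median log2 fold change was 0.76 over the higher genes tested and 0.51 over all genes tested, below each of the 5 values.

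**Figure D2:**
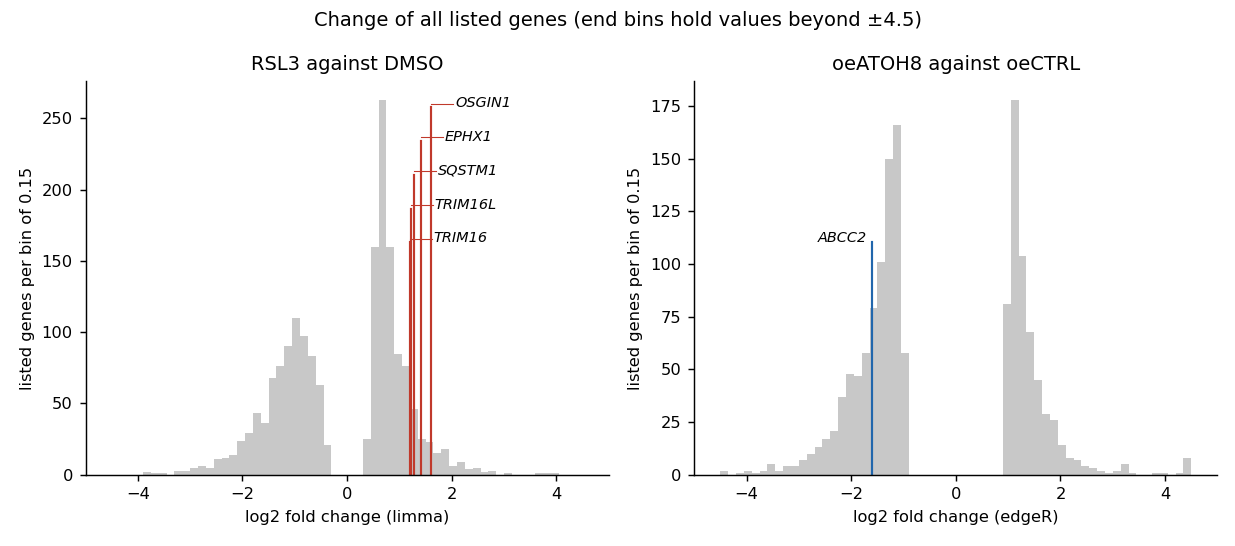
Histograms of the log2 fold change of all listed genes, RSL3 against DMSO by limma on the left and oeATOH8 against oeCTRL by edgeR on the right, with lines at the values of the 6 genes; the end bins collect values beyond the axis limits of the bins. Both panels have a gap around 0 because the tables hold called genes, and the 5 RSL3 lines lie from 1.20 to 1.61, to the right of the tallest bar among the higher genes.

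Replicate 1 moved with these genes in both groups. SQSTM1 in DMSO replicate 1 was 1.90 times the mean of replicates 2 and 3, and in RSL3 replicate 1 it was 2.32 times. The same ratios were 1.89 and 2.13 for EPHX1, 1.62 and 2.00 for OSGIN1, 1.60 and 1.96 for TRIM16, and 1.55 and 1.74 for TRIM16L. Over 1377 listed genes with a symbol and a mean of at least 50, the medians were 1.17 and 1.22. Over the 811 of them that were higher with RSL3 they were 1.31 and 1.51, and over the 566 lower genes 0.86 and 0.70. The excess of SQSTM1 was at the 97.9th percentile of the 1377 genes in DMSO and the 95.5th in RSL3, and that of TRIM16L, the smallest of the 5, at the 88.4th and 82.9th. GC content, which can move with library preparation, was 63.4% for OSGIN1, 58.0% for SQSTM1, 56.4% for EPHX1, 53.0% for TRIM16 and 51.4% for TRIM16L, against medians of 58.9% for the higher and 49.2% for the lower genes. Its part in these ratios was not tested.

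**Figure D3:**
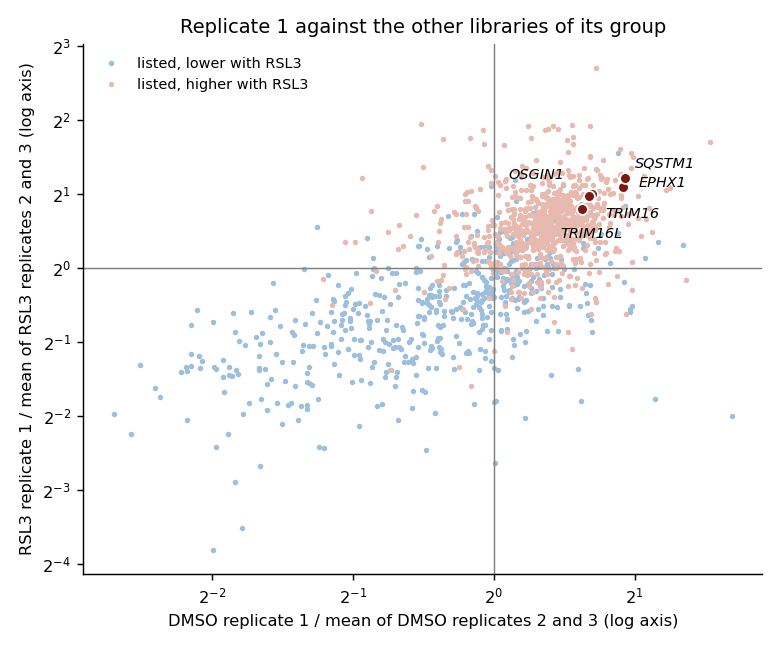
Each point is a listed gene with a symbol and a mean of at least 50; the x axis gives DMSO replicate 1 over the mean of DMSO replicates 2 and 3 and the y axis the same for RSL3, both on log axes. All 5 genes of the RSL3 table lie in the upper right, from 1.55 (TRIM16L) to 1.90 (SQSTM1) on x and from 1.74 to 2.32 on y.

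Because replicate 1 deviated alike in both groups, the fold was also taken within each number, although the pairing of replicates 2 and 3 is an assumption. For OSGIN1 it was 3.52 in replicate 1, 2.72 in replicate 2 and 3.00 in replicate 3. SQSTM1 had 2.76, 2.25 and 2.29, and EPHX1 had 2.89, 2.53 and 2.58. TRIM16 had 2.63, 2.09 and 2.21, and TRIM16L 2.53, 2.22 and 2.28. Every one of these folds was above 2, and replicate 1 gave the highest for every gene. With replicate 1 left out of both groups the folds were 2.85 for OSGIN1, 2.55 for EPHX1, 2.27 for SQSTM1, 2.25 for TRIM16L and 2.15 for TRIM16, so the order from OSGIN1 to EPHX1 to SQSTM1 was the same.

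**Figure D4:**
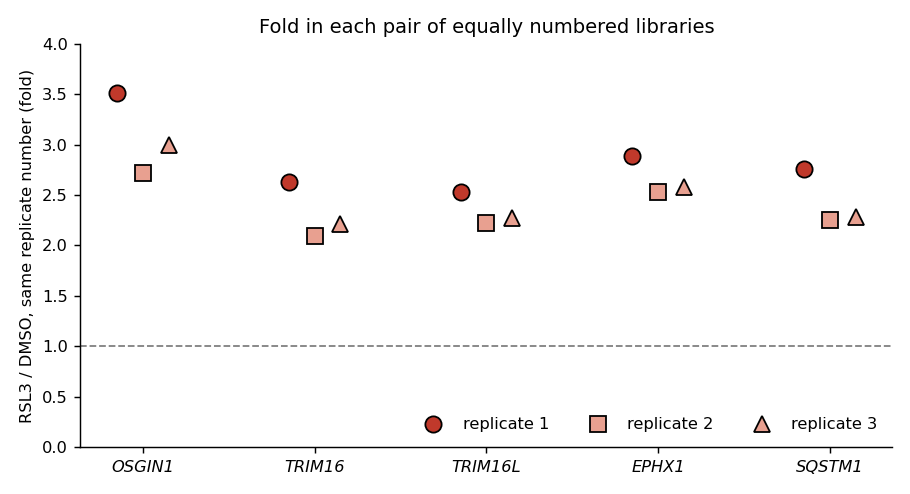
RSL3 over DMSO for equally numbered libraries, on a linear fold axis from 0 with a dashed line at 1; symbols mark the replicate number. Replicate 1 gives the highest fold for each of the 5 genes, up to 3.52 for OSGIN1, and the lowest of all is 2.09 for TRIM16 in replicate 2.

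The scale of the table matters for the size of these values. Scaling by total reads over the listed genes shifted the scale between the groups by -0.47 on log2 fold changes, TMM scaling by -0.29 and RLE scaling by -0.31 (less for genes with few reads, because of the pseudocount), and the listed genes called at an adjusted p of 0.05 by limma went from 747 higher and 674 lower to 154 and 480, 278 and 648, and 259 and 639. All 5 genes remained higher under each scaling, with log2 fold changes from 0.73 (TRIM16, by totals) upwards. In bulk RNA, fewer cells of a type and less RNA per cell cannot be told apart. Of 5 immune markers CD68 was listed, with 787 to 1607 in DMSO and 1498 to 4290.3 in RSL3, highest in replicate 1 of each group; no stromal, endothelial or erythroid marker was listed. CD68 is also a lysosomal glycoprotein, and its part in the result was not tested.

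The pattern closest to each gene was taken as Pearson's r of log2(value + 1) over the 6 DMSO and RSL3 libraries, among 1376 other listed genes with a symbol and a mean of at least 50. All these genes share the group difference and replicate 1, so high values are common: from 469 (OSGIN1) to 549 (TRIM16) genes exceeded 0.95. For OSGIN1 the 3 highest were PGLS, a pentose phosphate enzyme (r = 0.9995), TRIM16L (0.9986) and TRAPPC5 (0.9975). For TRIM16 they were SNU13 (0.9993), KIAA0930 (0.9993) and ECSIT (0.9989), and for TRIM16L they were GCAT (0.9994), BANF1 (0.9994) and CYC1 (0.9992). For EPHX1 they were SLC25A11 (0.9997), COG4 (0.9995) and DNAJA3 (0.9995), and for SQSTM1 they included PPP1R16A (0.9998) and SNHG29 (0.9996). Among the 5 genes themselves r ran from 0.977 (OSGIN1 with SQSTM1, where 195 listed genes were closer to OSGIN1) to 0.999 (OSGIN1 with TRIM16L).

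ABCC2 (ENSG00000023839, chromosome 10, 99782640 to 99852594, plus strand) was 3.04-fold lower with ATOH8 overexpression. Its raw reads were 762, 676 and 833 in oeCTRL replicates 1, 2 and 3. They were 216, 256 and 290.0 in the oeATOH8 replicates. Scaled, these were 738.9, 699.9 and 856.6 against 210.1, 262.8 and 281.4, and no oeATOH8 library came near the controls: the lowest control was 2.49 times the highest oeATOH8 library. The means were 765 ± 81.6 and 251 ± 37.0 (SD, n = 3), with an edgeR log2 fold change of -1.61 (SE 0.14). Per kb of its longest coding transcript this was 132 ± 14.1 and 43.3 ± 6.37. Among all 1424 listed genes 58.3% were lower with groups that do not overlap, and edgeR's quasi-likelihood test called 100% of them, 58.6% lower, at an adjusted p of 0.05.

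By fold, ABCC2 was 306th of the 835 lower genes, whose median log2 fold change was -1.41. Over all 1424 genes the median was -1.10. The 3 listed genes with the closest pattern over the 6 libraries, among 1044 compared, were MSMO1, a sterol synthesis enzyme (r = 0.998), ENPP5 (0.996) and KCND1 (0.996); 328 genes exceeded 0.95. The scale between these groups was set here from the gap between higher and lower genes. ABCC2 had a log2 fold change of -2.06 when scaled by totals over listed genes, -1.30 by TMM and -0.70 by RLE, lower in each case.

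Markers of other cells were higher in the oeATOH8 libraries. Of 5 erythroid markers 3 were listed, HBB, HBA1 and HBA2, with a summed scaled count of 4.11 to 12.6 in oeCTRL and 55109, 3224 and 12813 in oeATOH8 replicates 1, 2 and 3; HBB was at 0 in all 3 controls. Of 6 stromal markers 2 were listed, COL1A2 and COL3A1, which summed to 0 to 10.3 in oeCTRL and 130.4 to 196 in oeATOH8. KRT8 and CDH1, the epithelial markers listed, summed to 17132 to 17480 in oeCTRL and 5980 to 6704 in oeATOH8. ABCC2 was lowest in replicate 1, where the haemoglobin genes were highest, and the log2 fold change without that library was -1.49. Replicate 3 had more haemoglobin reads than replicate 2 (12813 against 3224) but also more of ABCC2 (281.4 against 262.8, scaled). The part of these markers in the difference of ABCC2 was not tested.

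The wider NRF2 pathway was read from a list of 42 target genes, the 6 included, chosen with results of these data known. With RSL3, 19 were in the table, all with higher means, where 52.9% of all listed genes were higher. The median log2 fold change of the 19 was 1.27, against 0.51 over all genes tested and 0.76 over the higher ones. Of the 36 targets other than the 6 genes, 14 were in the table, with a median of 1.19. By limma over all listed genes 13 of these 14 passed (adjusted p below 0.05), all higher, where 82% of the genes tested passed and 43.1% did so as higher. Being listed makes a pass likely, so little is read from this count. FTL, the ferritin light chain, was the exception, with 41033 ± 19057 and 82132 ± 44640 and an adjusted p of 0.0658, or 0.00232 with a replicate block. With that block limma called 1720 of the 1732 genes tested. The block counts replicates 2 and 3 as separate pairs, although they were close to repeats of 1 sample. No block value here or below is therefore read as a pass. On recovered reads without a block, edgeR passed 13 of the 14 and DESeq2 all 14. DESeq2 called 1727 listed genes in that setting. With replicates 2 and 3 averaged as 1 sample, AKR1C1 alone of the 14 passed (adjusted p 0.0468 by limma), and no gene of the other lists described below did. It was also the single one to pass without DMSO replicate 2 (0.0151) or DMSO replicate 3 (0.0159). Scaling by totals, TMM or RLE left 8 of the 14 past the threshold, with all 14 still higher.

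AKR1C1, an aldo-keto reductase, rose most among those with a mean of at least 50, from 63.8 ± 15.3 to 432 ± 53.2, 6.76-fold. HMOX1, haem oxygenase 1, rose 4.76-fold, AKR1C2 4.01-fold and CYP4F11, a fatty acid hydroxylase, 3.97-fold, from 107 ± 7.49 to 426 ± 214. By log2 fold change the 5 genes above lay in the middle of the 19, between CYP4F11 (1.87) and SLC48A1, a haem transporter (1.11), with FTH1, the ferritin heavy chain (1.27), among them. Reads of AKR1C1, AKR1C2 and AKR1C3 can be shared by the aligner.

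With ATOH8 overexpression, 6 of the 42 targets were listed, all lower, where 58.6% of the listed genes were. Their median log2 fold change was -1.40, against -1.10 over all 1424 genes and -1.41 over the lower ones, so their size was that of other lower genes. Without ABCC2 the other 5 had -1.28. These 5 passed edgeR's test, as did 100% of the listed genes, so the pass adds nothing. AKR1C1 fell from 216 ± 36.9 to 72.5 ± 20.1, 2.99-fold, and AKR1C3 from 286 ± 19.6 to 118 ± 16.7, 2.43-fold. HMOX1 fell from 3492 ± 101 to 1510.2 ± 45.4, 2.31-fold. ABCC2 was 3.04-fold lower, next to AKR1C1; without oeATOH8 replicate 1 its log2 fold change of -1.49 was smaller in size than those of AKR1C1 (-1.75) and AKR1C2 (-2.36). Under RLE scaling 3 of the 5 passed, with a median of -0.38, and all 5 were still lower. HMOX1, AKR1C1, AKR1C2 and PRDX1, a peroxiredoxin, were in both tables, 4.76-fold, 6.76-fold, 4.01-fold and 1.39-fold higher with RSL3 and 2.31-fold, 2.99-fold, 2.88-fold and 2.25-fold lower with ATOH8. In all, 251 symbols were in both tables. The share of them with opposite directions was not counted, so nothing is read from the directions of these genes.

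**Figure D5:**
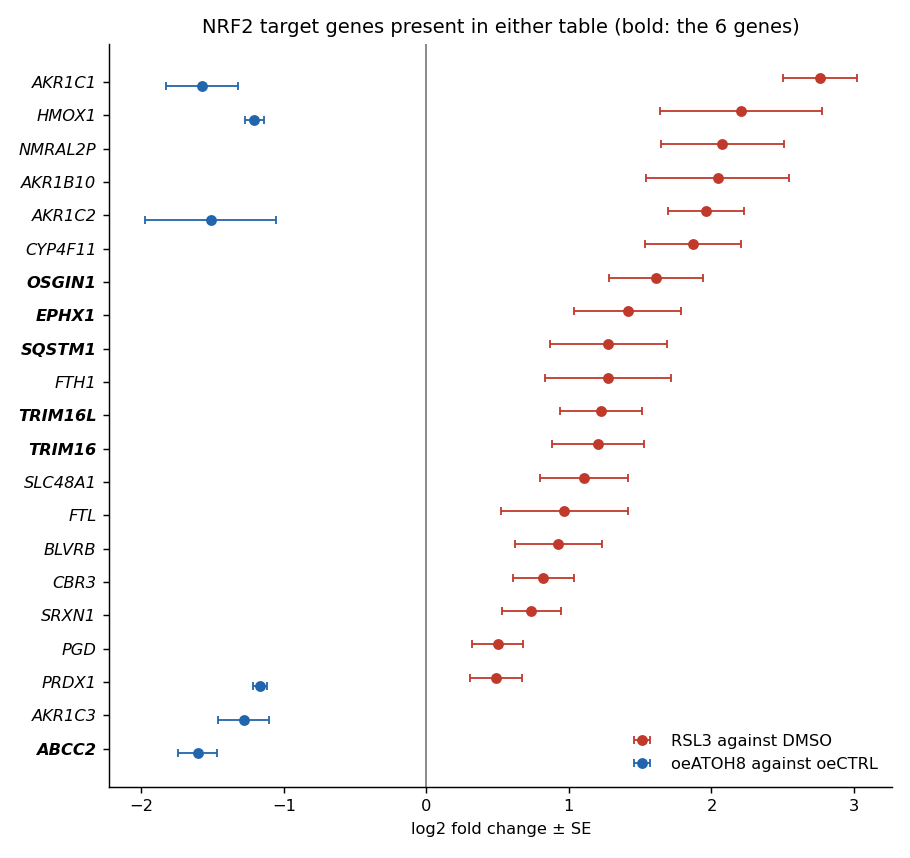
Log2 fold change ± SE of the genes of the NRF2 target list that are in either table, RSL3 against DMSO in red (limma) and oeATOH8 against oeCTRL in blue (edgeR), with the 6 genes in bold. All 19 red points lie above 0 and all 6 blue points below 0, with ABCC2 at -1.61.

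Regulators of the pathway were sparse in both tables. Of 16 listed as regulators and partners, 2 were in the RSL3 table: NFE2L3, an NRF2 relative, fell 2.25-fold from 620.4 ± 265 to 276 ± 63.1, and RBX1, a subunit of the KEAP1 ligase, had 745 ± 60.8 and 964 ± 1.70 (adjusted p 0.0559 by limma, 0.0144 with a replicate block). Scaled by totals, RBX1 was lower and NFE2L3 did not pass. In the ATOH8 table only MAFF, a small MAF partner of NRF2, was present; it rose from 1432 ± 56.4 to 3402 ± 126, 2.37-fold.

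For SQSTM1, the autophagy receptors and core genes form its other setting. Of 28 such genes, 5 were in the RSL3 table, with a median log2 fold change of -0.50. The median was 0.51 over all genes tested and -1.10 over the lower ones. SQSTM1 was the highest of them. The mitophagy receptors BNIP3 and BNIP3L fell, 2.12-fold from 2597 ± 747 to 1227 ± 288 and 1.90-fold, and ATG7, the enzyme that activates the ubiquitin-like autophagy proteins, fell 1.42-fold (each past limma's threshold). Of the 4 genes besides SQSTM1, 3 thus passed as lower, beside 38.9% of all genes tested. Being listed makes a pass likely, so little is read from this count. TEX264, a receptor for endoplasmic reticulum, had 1129 ± 186 and 1813 ± 716 (adjusted p 0.0623, or 0.00846 with a replicate block). Among 19 lysosome genes and factors that drive them, CTSD, the protease cathepsin D, was the single one listed, at 11782 ± 4379 and 21498.5 ± 11077 (adjusted p 0.0743, or 0.00269 with a replicate block). No gene of either list was in the ATOH8 table. Scaled by totals, or by RLE, 2 of the 3 decreases passed. On recovered reads without a block, TEX264 and CTSD passed by DESeq2 but not by edgeR.

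Around EPHX1, 7 of the other 27 epoxide and phase 1 and 2 enzymes were listed with RSL3, 5 higher and 2 lower. Of these 4 and 2 passed, beside 43.1% and 38.9% of all genes tested. The median log2 fold change was 0.69, against 0.51 over all genes tested and 0.76 over the higher ones. Besides CYP4F11, the aryl hydrocarbon target CYP1A1 rose 2.63-fold, from 94.1 ± 4.67 to 248 ± 182, and the glutathione transferase GSTP1 rose 1.65-fold, while GSTM3 fell 1.54-fold. Much of the rise of CYP1A1 lay in RSL3 replicate 1, at 3.2 times the mean of RSL3 replicates 2 and 3. For CYP4F11 this ratio was 2.2, within the 1.74 (TRIM16L) to 2.32 (SQSTM1) of the 5 genes above. The same ratio in DMSO was 1.0 for CYP1A1 and CYP4F11, and 1.55 to 1.90 for the 5 genes. Of the 4 that rose besides EPHX1, 1 passed when the libraries were scaled by totals and 2 by TMM or RLE. With ATOH8 overexpression 5 were listed and passed, as 100% of the listed genes did. Their median was -1.40, against -1.10 over all listed genes and -1.41 over the lower ones. Under RLE scaling the median was -0.49, and 3 of the 4 decreases passed. CYP1A1 rose 2.21-fold, and NAT1 (3.97-fold), EPHX3 (2.66-fold), SULT1A3 (2.64-fold, uncertain because of its near-identical copy SULT1A4) and GSTM3 (2.29-fold) fell. EPHX1 itself was not among them.

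ABCC2 is one of 29 ABC transporters on a list of that family. Of the other 28, 3 were in the ATOH8 table, 2 lower and 1 higher, so their median is the value of a lower gene. This median log2 fold change was -1.68, against -1.10 over all listed genes and -1.41 over the lower ones. Under RLE scaling it was -0.77. All 3 passed, as 100% of the listed genes did. The cholesterol exporters ABCA1 and ABCG1 fell, 3.21-fold and 3.69-fold, and ABCC9, a subunit of potassium channels, rose 2.16-fold. With RSL3, 3 were listed, and 1 passed in each direction, beside 43.1% of genes tested higher and 38.9% lower. ABCB8, a mitochondrial transporter, rose 1.62-fold, and ABCA1, with few reads, fell from 27.1 ± 12.3 to 8.30 ± 5.95, 3.26-fold (adjusted p 0.0487 by limma). ABCG2, also with few reads, had 11.7 ± 7.12 and 36.6 ± 20.5 and did not pass (adjusted p 0.0514 by limma). It passed by edgeR and by DESeq2 on recovered reads without a block. With a pseudocount of 0.5, ABCA1 did not pass. No ABC transporter passed with RSL3 when the libraries were scaled by totals, TMM or RLE. Of the 49 tripartite-motif genes besides TRIM16 and TRIM16L, 3 were in the RSL3 table, 2 higher and 1 lower, and 1 of each passed, beside the same shares. TRIM21 fell 1.89-fold and TRIM41, at 2423 ± 671 and 3939 ± 1447, did not pass (adjusted p 0.0592, or 0.00282 with a replicate block). TRIM41 passed by DESeq2 on recovered reads without a block. None of the 49 was in the ATOH8 table.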

How the data were processed

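RNA of 12 DU145 libraries was analysed. The submitters' processing notes name hg38 (GRCh38) and the tools fastp, HISAT2, StringTie and DESeq2, but no version or role. Strandedness is not given in the sources used here. The authors deposited the RSL3 table as a normalised signal per library, with a position and strand for each gene. The values (100% within 0.001) came out as whole reads once multiplied by 1 factor per library, from 0.691 (RSL3 replicate 1) to 1.31 (DMSO replicate 2). The authors deposited the ATOH8 table as raw read counts per gene. There, NC was taken as oeCTRL and OE as oeATOH8, from the name of the table.

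RSL3 genes were named by RefSeq spans on the same strand (1065 the same, 719 overlapping by at least 0.5, 26 unnamed), TRIM16L by overlap. Of 1152 Ensembl identifiers 1137 had a symbol. GC content, lengths, overlaps and transcripts came from GENCODE v29.

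RSL3 values went into limma 3.58.1 with a variance trend, as log2(value + 1). Low genes were dropped by filterByExpr of edgeR (10 counts, 15 in total), which took out 78. The ATOH8 counts were tested with edgeR 4.0.16 (quasi-likelihood) and no gene was removed. There, each group was put on its median ratio, and the 2 groups were set so that the gap in log2 ratios, -0.97 to 1.03 before, was centred on 0, which assumes that the authors' limits were symmetric. A fold is a ratio of group means. Both tests were two-sided, with p adjusted over the listed genes by Benjamini-Hochberg at 0.05. Both were also run on simulated counts that held no deviation of replicate 1, so that run says nothing of how the tests behave with it. Alternatives were DESeq2 1.42.0, edgeR on recovered reads, other scalings, pseudocounts and filters, a replicate block and left-out libraries (R 4.3.3). Same-numbered DMSO and RSL3 libraries deviated from their group means together (r = 0.61, 0.47 and 0.44), so the numbers were taken to pair the libraries. Replicates 2 and 3 crossed at 0.47 and 0.50, at least as high as their own pairs. These values therefore show a pairing of replicate 1 only, and that of replicates 2 and 3 is an assumption. In the ATOH8 table they were 0.057, 0.048 and 0.088, which is no pairing.

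The 6 genes and all lists were chosen with earlier results of these data known. The rule for named genes took the 6 genes, the 3 listed genes closest in pattern to each, up to 4 genes per list with the largest log2 fold change and a mean of at least 50, and ATOH8 and GPX4. FTL, RBX1, PRDX1, SLC48A1, FTH1 and a few others were named after their values were seen. A few genes that the rule would name are not reported here.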

Additional observations from a re-analysis of the deposited data

How the results depend on the processing

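Of 95 values of the 5 RSL3 genes over 19 alternative settings, 94 moved by less than the SD between unpaired replicates and none changed direction. That SD holds the deviation of replicate 1; with a replicate block the SE was 0.081 (EPHX1) to 0.107 (OSGIN1), and the scaling shifts of -0.29 to -0.47 exceed it for all 5. TRIM16L had a log2 fold change of 0.75 when scaled by totals over listed genes. Leaving out libraries gave 1.28 to 1.84 for OSGIN1, 0.88 to 1.43 for TRIM16, 0.96 to 1.43 for TRIM16L, 1.05 to 1.72 for EPHX1, 0.87 to 1.59 for SQSTM1 and -1.69 to -1.49 for ABCC2. For ABCC2, 11 of 14 alternatives were within the spread, and scaling by totals, TMM and RLE gave -2.06, -1.30 and -0.70. The listed RSL3 genes called by limma numbered 1421, and 1554 had an unadjusted p under 0.05. Scaled by totals, TMM and RLE they numbered 634, 926 and 898. Without 1 library they ranged from 6 to 1445: 6 without DMSO replicate 2, 8 without DMSO replicate 3, 330 without RSL3 replicate 2 and 310 without RSL3 replicate 3. Without replicate 1 of both groups 1713 were called, and with replicates 2 and 3 averaged as 1 sample 3 were, with 533 at an unadjusted p under 0.05; that setting has fewer samples, and these last 2 and the block on recovered reads were added after seeing the data. On recovered reads, edgeR called 1561 and DESeq2 1727. A replicate block gave 1720 calls by limma and 1722 by edgeR on recovered reads. In the ATOH8 table it changed no call (1424), and leaving out libraries gave 1417 to 1423. There, RLE scaling moved the calls from 589 higher and 835 lower to 589 and 418. The causes were not tested. Depth limits genes with few reads, and the library depths are unknown. Genes outside the tables could not be assessed.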
